A study of Mus musculus with 4 samples.

Results

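Gene expression of 7 subunits of the GABA-A receptor (Gabra2, Gabra3, Gabra4, Gabra5, Gabrb1, Gabrb2 and Gabrd) was examined in single nuclei of the adult mouse hippocampus. The 7 genes were taken as a list of symbols and matched to mouse Ensembl gene identifiers. All 7 were found among the 25567 genes of the count tables. The 4 groups of nuclei were compared, each a single library. The EdU+ Fasn-R1812W and EdU+ WT libraries hold nuclei that had taken up EdU, a thymidine analogue that marks DNA made during the labelling period. Mice received EdU at 100 mg/kg by 2 daily injections over 3 days, and their nuclei were taken on day 4. The NeuN+ Fasn-R1812W and NeuN+ WT libraries hold nuclei stained for NeuN, a protein of most mature neurons. Mice of all groups were 8.5 months old and were either wild type (WT) or carried the R1812W substitution in Fasn, the enzyme that makes palmitate. RNA was amplified by Smart-seq2, which reads whole transcripts and carries no molecular identifiers. With 1 library per group, the number of animals behind a library is not given in the sources used here, and differences between animals, sorts and genotypes cannot be told apart.

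GABA-A receptors are chloride channels built as pentamers, mostly of alpha and beta subunits together with a gamma or a delta subunit. Receptors with a gamma subunit gather at synapses through gephyrin, whereas the delta subunit, which pairs with the alpha subunit of Gabra4 in the forebrain, sits outside synapses and carries tonic inhibition. The alpha subunit of Gabra5 is known for extrasynaptic receptors of hippocampal pyramidal neurons. In newborn neurons GABA depolarises the cell, because the importer Slc12a2 is high and the exporter Slc12a5 is low. Oligodendrocyte precursors also carry GABA-A receptors and receive GABAergic input.

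The alpha subunit decides whether a receptor binds classical benzodiazepines, and a single residue in its extracellular part is the main determinant. Receptors with a histidine there bind these drugs, and receptors with an arginine, as encoded by Gabra4, do not. The coding strand around this codon is shown for the 4 alpha subunits because it marks the difference between the subunit most tied to the delta subunit and the others. The sequences come from GENCODE M21 transcripts (GRCm38), run 5′ to 3′ over 51 bases, and carry the codon in capitals.
Gabra2: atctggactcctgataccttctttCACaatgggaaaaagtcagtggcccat
Gabra3: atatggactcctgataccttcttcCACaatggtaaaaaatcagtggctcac
Gabra4: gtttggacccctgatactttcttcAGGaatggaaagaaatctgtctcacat
Gabra5: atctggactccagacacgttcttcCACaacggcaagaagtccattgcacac
Counted from 1 at the 5′ end of the stretch, Gabra4 differs from Gabra2 within the codon at C25A, A26G and C27G, and over the whole stretch at 15 bases. Gabra3 and Gabra5 carry the same codon as Gabra2 and differ from it at 6 and 12 bases of the stretch.

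On GRCm38, Gabra2 lies on chromosome 5 at 70957597-71095849 (minus strand) and Gabra3 on chromosome X at 72432681-72656848 (minus strand). Gabra4 (chromosome 5, 71569749-71658308, minus strand) and Gabrb1 (chromosome 5, 71658113-72149037, plus strand) stand head to head. Their spans overlap by 196 bp, and exons of the 2 genes overlap within that stretch. Gabra5 lies on chromosome 7 at 57407672-57510059 (minus strand). Gabrb2 is on chromosome 11 at 42419757-42629028 (plus strand) and Gabrd on chromosome 4 at 155384980-155398112 (minus strand). Whether reads were counted by strand is not given in the sources used here, so reads from the shared bases of Gabra4 and Gabrb1 cannot be told apart. In nuclei thinned to 50000 reads, 27 of the 33 Fasn-R1812W and 70 of the 73 WT granule-like nuclei with a Gabra4 read also had a Gabrb1 read. Of all granule-like nuclei, 35 of 45 in Fasn-R1812W and 92 of 96 in WT had a Gabrb1 read. In oligodendrocyte precursor-like nuclei 2 of the 14 Fasn-R1812W and 0 of the 3 WT nuclei with a Gabra4 read also had a Gabrb1 read. Of all nuclei of that class, 31 of 188 in Fasn-R1812W and 12 of 105 in WT had a Gabrb1 read.

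Each library held 384 wells, and the totals were 96597804 reads in EdU+ Fasn-R1812W, 36368990 in EdU+ WT, 72468235 in NeuN+ Fasn-R1812W and 71221156 in NeuN+ WT. Nuclei with at least 1000 genes and 50000 reads were kept, which left 348 in EdU+ Fasn-R1812W, 167 in EdU+ WT, 301 in NeuN+ Fasn-R1812W and 314 in NeuN+ WT. The EdU+ WT library stood apart, with a median of 1298 genes per kept nucleus against 3006 to 4417 in the other 3. Levels are given as CPM, the summed reads of a gene in the kept nuclei, scaled to a total of 1000000 reads. Nuclei of each gate were clustered without any GABA-A gene, and clusters were named from marker lists. The classes compared were granule neuron-like, CA1 pyramidal neuron-like, GABAergic interneuron-like, oligodendrocyte precursor-like and neuroblast-like. Other clusters were named mossy cell-like, subicular or entorhinal neuron-like, astrocyte-like, microglia-like and leukocyte-like, or stayed unnamed. There were 45 Fasn-R1812W and 96 WT granule-like nuclei, 69 Fasn-R1812W and 47 WT CA1-like nuclei, and 40 Fasn-R1812W and 33 WT interneuron-like nuclei. The EdU+ gate held 188 Fasn-R1812W and 105 WT oligodendrocyte precursor-like nuclei, and 24 Fasn-R1812W and 14 WT neuroblast-like nuclei. In granule-like nuclei 11 of 11 granule markers reached 10 CPM in both libraries, in CA1-like nuclei 8 of 8 CA1 markers, and in oligodendrocyte precursor-like nuclei 9 of 9 of theirs. Interneuron-like nuclei had 13 of 15 of their markers at that level in Fasn-R1812W and 14 of 15 in WT. All classes were rebuilt from the counts, so they may differ from classes the study used.

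EdU+ nuclei carried lower levels of most of these subunits than NeuN+ nuclei. Of the 7, 4 fell in EdU+ nuclei by edgeR's quasi-likelihood test over the 4 libraries (Benjamini-Hochberg adjustment over 17411 genes), none rose, and 3 did not pass. Of all genes tested, 3.85% were called higher and 2.88% lower in EdU+ nuclei. The median log2 fold change was -2.47 over the 7 subunits and -0.16 over all genes tested. Gabra2, an alpha subunit abundant in forebrain neurons, had 42.5 CPM in EdU+ Fasn-R1812W and 79.2 CPM in EdU+ WT, against 288 CPM in NeuN+ Fasn-R1812W and 436 CPM in NeuN+ WT. Its log2 fold change was -2.64 (SE 0.33, adjusted p = 0.00713). Both EdU+ libraries lay below both NeuN+ libraries, an order whose share over all genes is not given here. Gabra5 had 16.8 CPM in EdU+ Fasn-R1812W and 21.8 CPM in EdU+ WT, against 139 CPM in NeuN+ Fasn-R1812W and 159 CPM in NeuN+ WT. At -2.99 (SE 0.43, adjusted p = 0.0104) it showed the largest fall among the 4 called subunits.

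**Figure D1:**
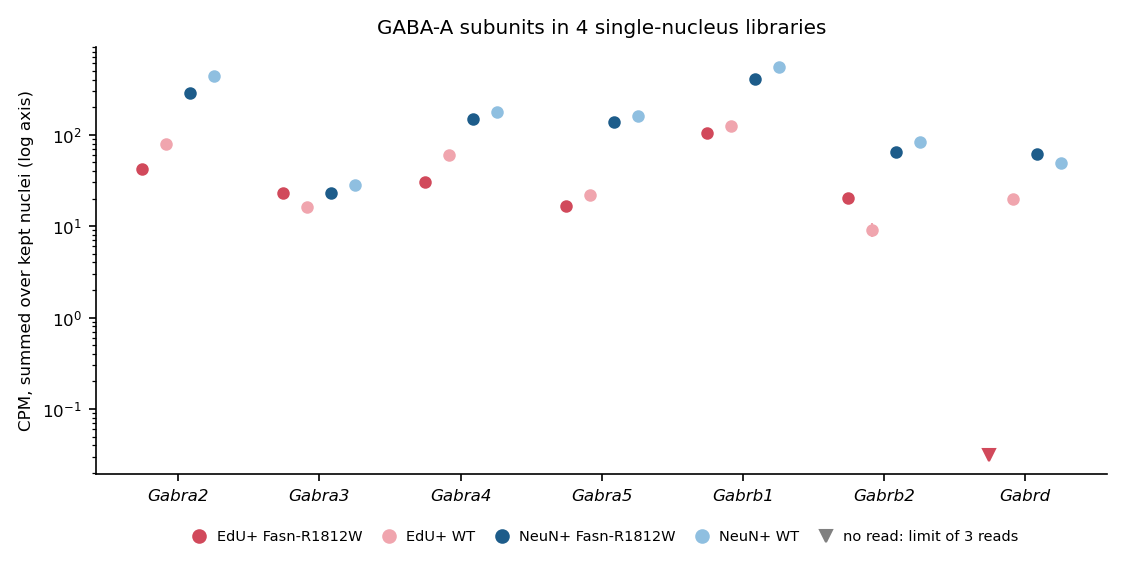
Each point is the level of a subunit in a library, in CPM on a log axis, with exact 95% Poisson intervals that cover counting error only and are mostly smaller than the points. The EdU+ points lie under the NeuN+ points for every subunit but Gabra3, an order whose share over all genes is not given here. Gabra3 ranges from 16.2 to 28.4 CPM over all 4 libraries. The triangle for Gabrd in EdU+ Fasn-R1812W, which had no read, stands at the level of 3 reads.

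Gabrb1, a beta subunit, had 104 CPM in EdU+ Fasn-R1812W and 124 CPM in EdU+ WT, against 408 CPM in NeuN+ Fasn-R1812W and 552 CPM in NeuN+ WT (log2 fold change -2.09, SE 0.32, adjusted p = 0.0125 by edgeR). Gabra4 had 30.7 CPM in EdU+ Fasn-R1812W and 60.3 CPM in EdU+ WT, against 146 CPM in NeuN+ Fasn-R1812W and 176 CPM in NeuN+ WT (log2 fold change -1.93, SE 0.40, adjusted p = 0.0358 by edgeR). For each of these 2 genes both EdU+ values lay below both NeuN+ values, and the share of all genes with that order is not given here. The Gabra4 call was lost with all 4 libraries and no genotype term (adjusted p = 0.0511), and without the NeuN+ WT library in a fit that also had no genotype term (adjusted p = 0.154). All 4 calls were lost with a stricter nucleus filter of 2000 genes and 100000 reads, which left 5 EdU+ WT nuclei.

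The other 3 subunits gave no call between the gates. Gabra3 had 23.0 CPM in EdU+ Fasn-R1812W and 16.2 CPM in EdU+ WT, against 22.8 CPM in NeuN+ Fasn-R1812W and 28.4 CPM in NeuN+ WT, with a log2 fold change of -0.43 (SE 0.82, adjusted p = 0.845). Gabrb2, the other beta subunit of the list, had 20.3 CPM in EdU+ Fasn-R1812W and 9.05 CPM in EdU+ WT, against 65.0 CPM in NeuN+ Fasn-R1812W and 83.2 CPM in NeuN+ WT (adjusted p = 0.0866). It was called lower in EdU+ nuclei by DESeq2 (adjusted p = 0.00241), in thinned nuclei (adjusted p = 0.0210) and with a relaxed nucleus filter (adjusted p = 0.0462). Gabrd, the delta subunit, had no read in 348 EdU+ Fasn-R1812W nuclei, and 19.8 CPM in EdU+ WT, against 60.7 CPM in NeuN+ Fasn-R1812W and 49.4 CPM in NeuN+ WT. Its fitted change of -6.11 (SE 3.55, adjusted p = 0.408) rests on the library without reads and is no measure of size. A fold is not given for Gabrd in EdU+ Fasn-R1812W, because reads without molecular identifiers are not independent molecules. With 3 libraries edgeR was fitted with gate as the only term, and the lone library of a gate was assumed to vary like the pair of the other. In those fits Gabrb2 (adjusted p = 0.00435) and Gabrd (adjusted p = 0.0436) were called lower without the EdU+ Fasn-R1812W library, and likewise without the EdU+ WT library (0.0281 for Gabrb2 and 0.00128 for Gabrd). In summed nuclei, fewer cells of a type and less RNA per cell cannot be told apart.

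Within the EdU+ gate, most nuclei were oligodendrocyte precursor-like, and their subunits differed from those of neurons. Gabrb1 had 140.3 CPM in Fasn-R1812W and 75.8 CPM in WT nuclei of this class, Gabra2 had 59.1 CPM in Fasn-R1812W and 44.8 CPM in WT, and Gabra3 37.1 CPM in Fasn-R1812W and 23.1 CPM in WT. Gabra4 had 9.85 CPM in Fasn-R1812W and 10.6 CPM in WT nuclei. Not a single Gabrd read was found in the 188 Fasn-R1812W and 105 WT nuclei of the class, which allows a share of nuclei with a read of up to 1.60% in Fasn-R1812W and 2.86% in WT (3 nuclei of the total, for counting error only). After thinning to 50000 reads, granule-like nuclei had a Gabrd read in 48.9% of Fasn-R1812W and 42.7% of WT nuclei. No fold is given against 0 reads, because reads without molecular identifiers are not independent molecules. In oligodendrocyte precursor-like nuclei the signal of the other subunits came from a minority of nuclei. In nuclei thinned to 50000 reads, Gabrb1 was seen in 16.5% of Fasn-R1812W and 11.4% of WT nuclei, Gabra2 in 14.9% of Fasn-R1812W and 7.62% of WT nuclei, and Gabra3 in 10.1% of Fasn-R1812W and 6.67% of WT nuclei. None of the 7 was seen in 104 of 188 Fasn-R1812W and 77 of 105 WT nuclei. Granule markers summed to 899 CPM in Fasn-R1812W and 541 CPM in WT nuclei of this class, and interneuron markers to 755 CPM in Fasn-R1812W and 709 CPM in WT. Astrocyte markers summed to 5239 CPM in Fasn-R1812W and 5731 CPM in WT. The oligodendrocyte precursor markers themselves summed to 9521 CPM in Fasn-R1812W and 10501 CPM in WT. The part of the other cell types in the subunit levels was not tested.

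EdU+ microglia-like nuclei served as a class that should lack these channels. Over 57 Fasn-R1812W nuclei of this class, Gabra2 reached 0.50 CPM, Gabrb1 0.94 CPM, Gabra4 and Gabra3 0.19 CPM each, and Gabrd none. Gabrb2 reached 35.8 CPM there, of which 99.8% came from 1 nucleus. The shares of thinned nuclei with a read were 5.26% for Gabrb1 and 1.75% each for Gabra2, Gabra4 and Gabrb2. Astrocyte-like EdU+ nuclei, a cluster led by genes of dividing cells, had 371 CPM of Gabra4 in 17 Fasn-R1812W nuclei, 90.4% of it from 1 nucleus. In the same 17 nuclei Gabrb1 had 342 CPM and was seen in 35.3% of thinned nuclei, against 44.3 CPM and 1 of 10 nuclei in WT.

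Neuroblast-like EdU+ nuclei held neuronal subunits at levels that rested on few nuclei. Gabra2 had 139 CPM in 24 Fasn-R1812W nuclei and 494 CPM in 14 WT nuclei, and a single nucleus gave 50.2% of the reads in Fasn-R1812W and 56.95% in WT. Gabra5 had 115 CPM in Fasn-R1812W, 93.0% of it from 1 nucleus, and 200.2 CPM in WT. Gabra3 was at 2 reads in Fasn-R1812W and none in WT. All 297 Gabrd reads of the EdU+ WT library fell in 3 neuroblast-like nuclei, 54.2% of them in 1 nucleus. The neuroblast markers, among them Dcx and Sox11, summed to 3299 CPM in Fasn-R1812W and 1336 CPM in WT, with 7 of 7 at 10 CPM or more in each. Interneuron markers summed to 1847 CPM in Fasn-R1812W and 1418 CPM in WT, and astrocyte markers to 3835 CPM in Fasn-R1812W and 2186 CPM in WT. Oligodendrocyte precursor markers summed to 1926 CPM in Fasn-R1812W and 577 CPM in WT, CA1 markers to 532 CPM in Fasn-R1812W and 50.9 CPM in WT, and microglia markers to 603 CPM in Fasn-R1812W and 48.9 CPM in WT. The part of these other cell types in the subunit levels was not tested.

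Among the granule-like, CA1-like and interneuron-like classes of NeuN+ nuclei, the subunits with the clearest class pattern were Gabrd, Gabra3, Gabra5 and Gabra2. Classes were built from the same nuclei, so class differences are given as values without a test. A subunit was counted as different when its log2(CPM + 1) differed by at least 2-fold in the same direction in both NeuN+ libraries. In granule-like over CA1-like nuclei 1 subunit was higher (Gabrd) and 1 lower (Gabra3), where 7.48% of 10085 genes were higher and 7.51% lower. In granule-like over interneuron-like nuclei 1 was higher (Gabra5) and 1 lower (Gabra3), against 10% and 11.5% of 10287 genes. In CA1-like over interneuron-like nuclei 2 were higher (Gabra2 and Gabra5) and 1 lower (Gabrd), against 9.27% and 9.91% of 10344 genes. Within single libraries 2-fold ratios were more common. In granule-like over CA1-like nuclei 18.3% of genes were higher and 22.1% lower in Fasn-R1812W, and 18.3% higher and 15.8% lower in WT. In granule-like over interneuron-like nuclei 22.5% were higher and 27.6% lower in Fasn-R1812W, and 21.2% higher and 21.3% lower in WT. In CA1-like over interneuron-like nuclei 20.8% were higher and 22.3% lower in Fasn-R1812W, and 20.7% higher and 23.4% lower in WT.

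Of these 3 classes, Gabra2 was highest in CA1-like nuclei, at 384 CPM in Fasn-R1812W and 584 CPM in WT. Granule-like nuclei had 303 CPM in Fasn-R1812W and 436 CPM in WT, and interneuron-like nuclei 61.2 CPM in Fasn-R1812W and 225 CPM in WT. The order of the classes was the same in both libraries, but granule-like nuclei lay within 2-fold of CA1-like nuclei. The CA1-like over interneuron-like log2 ratio was 2.63 in Fasn-R1812W and 1.37 in WT, and its WT value dropped below the 2-fold line with coarser clustering (0.81) and without the nuclei richest in genes (0.73).

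Gabra3 was almost absent from granule-like nuclei, with 2 reads in the 45 Fasn-R1812W nuclei and 7 reads in the 96 WT nuclei (0.15 CPM in Fasn-R1812W and 0.30 CPM in WT). CA1-like nuclei had 31.8 CPM in Fasn-R1812W and 18.6 CPM in WT, and interneuron-like nuclei 30.4 CPM in Fasn-R1812W and 50.05 CPM in WT. In those classes it was a minority transcript, seen in 15.9% of Fasn-R1812W and 17.0% of WT CA1-like nuclei and in 8 of 40 Fasn-R1812W and 11 of 33 WT interneuron-like nuclei. The granule-like over CA1-like log2 ratio was -4.84 in Fasn-R1812W and -3.92 in WT, and stayed at least 2-fold down in both libraries in 10 of 10 alternatives. In the WT library it came to -1.25 under coarser clustering.

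Among the same 3 classes, Gabra4 was highest in granule-like nuclei in WT, at 249 CPM, against 161 CPM in CA1-like and 121 CPM in interneuron-like nuclei. In Fasn-R1812W granule-like nuclei had 217 CPM, interneuron-like nuclei 188 CPM and CA1-like nuclei 104 CPM. A single nucleus gave 42.5% of the reads of the Fasn-R1812W interneuron-like class, which had 114 CPM without it. The granule-like over CA1-like log2 ratio was 1.05 in Fasn-R1812W and 0.62 in WT, so it passed 2-fold in one library only.

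Gabra5 was low in interneurons and high in both principal neuron classes. CA1-like nuclei had 196 CPM in Fasn-R1812W and 210.1 CPM in WT, granule-like nuclei 122 CPM in Fasn-R1812W and 198 CPM in WT, and interneuron-like nuclei 42.4 CPM in Fasn-R1812W and 13.2 CPM in WT. The CA1-like over interneuron-like log2 ratio was 2.18 in Fasn-R1812W and 3.90 in WT, and the granule-like over interneuron-like ratio 1.502 in Fasn-R1812W and 3.81 in WT. Both held at 2-fold in 10 of 10 alternatives. CA1-like and granule-like nuclei did not differ by 2-fold in either library.

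**Figure D2:**
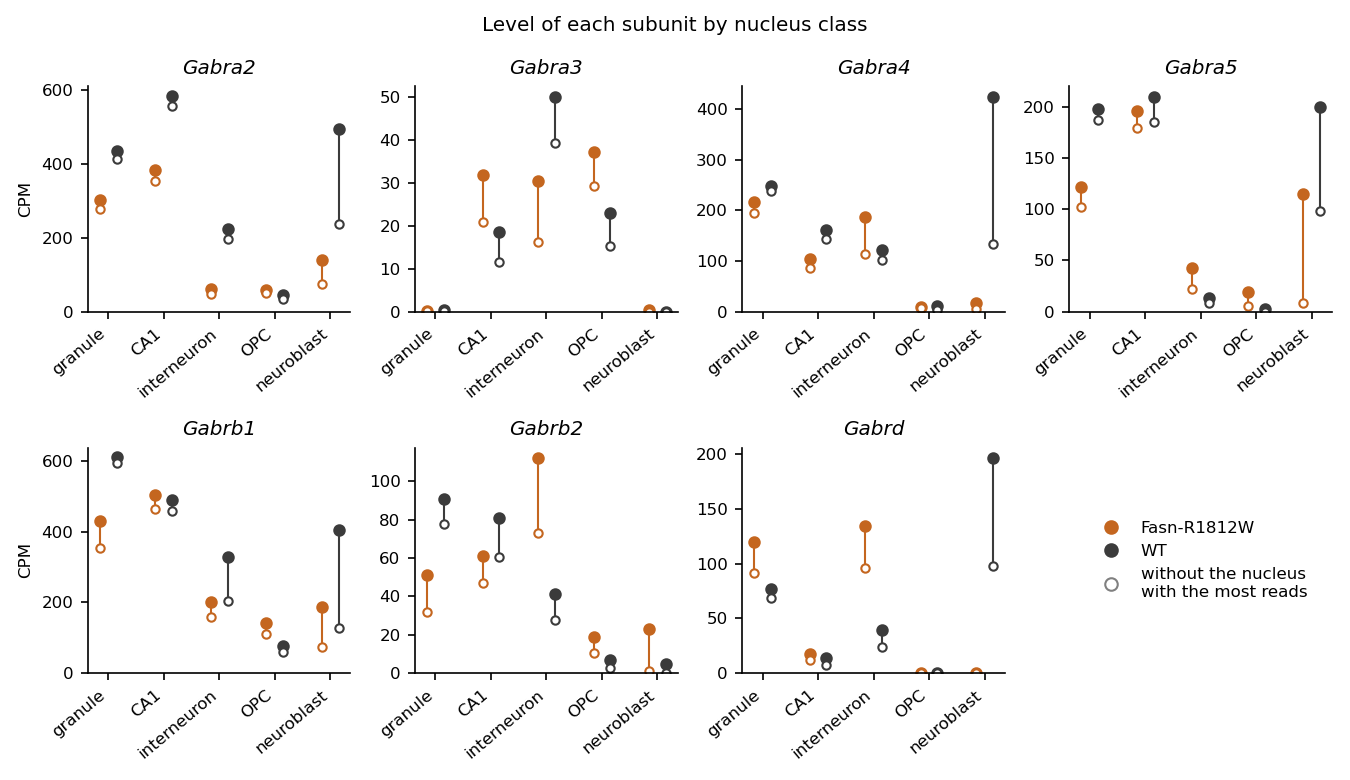
Each panel gives the level of a subunit in CPM (linear axis from 0, its own scale per panel) in granule-like, CA1-like, interneuron-like, oligodendrocyte precursor-like (OPC) and neuroblast-like nuclei, Fasn-R1812W left of WT. Filled points use all nuclei and open points leave out the nucleus with the most reads of the gene, so a long line, as for WT neuroblast-like Gabra4 (424 to 134 CPM), marks a level that rests on 1 nucleus.

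Of the beta subunits, Gabrb1 had 430.1 CPM in Fasn-R1812W and 611 CPM in WT granule-like nuclei, 505 CPM in Fasn-R1812W and 489 CPM in WT CA1-like nuclei, and 202 CPM in Fasn-R1812W and 329 CPM in WT interneuron-like nuclei. It was lower in interneuron-like than in either principal class in both libraries, by 2-fold in Fasn-R1812W only. A single nucleus gave 42.8% of the WT interneuron-like reads, and the level was 203 CPM without it. By the mean over nuclei the WT log2 ratio over interneuron-like nuclei was 1.56 in granule-like and 1.10 in CA1-like nuclei, past 2-fold in both. Gabrb2 had 51.1 CPM in Fasn-R1812W and 90.5 CPM in WT granule-like nuclei and 60.9 CPM in Fasn-R1812W and 80.7 CPM in WT CA1-like nuclei. In interneuron-like nuclei it had 112 CPM in Fasn-R1812W and 41.3 CPM in WT, so its order among the classes by summed CPM went opposite ways in the libraries. By the mean over nuclei its Fasn-R1812W log2 ratio over interneuron-like nuclei was -0.05 in granule-like and -0.28 in CA1-like nuclei. In WT these ratios were 0.60 in granule-like and 0.61 in CA1-like nuclei.

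Gabrd was at 119 CPM in Fasn-R1812W and 76.7 CPM in WT granule-like nuclei, against 17.4 CPM in Fasn-R1812W and 14.0 CPM in WT CA1-like nuclei. The log2 ratio was 2.71 in Fasn-R1812W and 2.37 in WT, and was 1.86 or more in both libraries in all 10 alternatives. Interneuron-like nuclei had 134 CPM in Fasn-R1812W and 39.6 CPM in WT, so they lay near or below granule-like nuclei. Within the granule-like class, the cluster led by Cxcl12, Lct and Dsp had 130.4 CPM in Fasn-R1812W and 107 CPM in WT, and the cluster led by Il1r1 and Tdo2 had 108 CPM in Fasn-R1812W and 38.5 CPM in WT. Within interneurons of WT, Gabrd had 75.7 CPM in the cluster led by Sst and Pvalb and 1.18 CPM in the cluster led by Ndnf and Reln. In Fasn-R1812W the Sst and Pvalb cluster had 159.9 CPM and the Ndnf and Reln cluster 109 CPM, with 77.9% of the reads of the Ndnf and Reln cluster in 1 of its 20 nuclei. In the Sst and Pvalb cluster 1 nucleus gave 54.4% of the reads in Fasn-R1812W and 43.2% in WT.

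Shares of nuclei with a read, after each nucleus was thinned to 50000 reads, put less weight on single nuclei. They kept the CPM order of granule-like and CA1-like nuclei for Gabrd and Gabra2, and of CA1-like and interneuron-like nuclei for Gabra5. In Fasn-R1812W they departed from CPM for interneuron-like nuclei. Gabrd was seen in 10 of 40 of them and 22 of 45 granule-like nuclei, against 134 CPM and 119 CPM. Gabra4 was seen in 20 of 40 of them and 35 of 69 CA1-like nuclei, against 188 CPM and 104 CPM. In WT both pairs kept their CPM order. Gabrd was seen in 48.9% of Fasn-R1812W granule-like nuclei (exact Clopper-Pearson 95% interval 33.7 to 64.2) and 42.7% of WT ones (32.7 to 53.2). In CA1-like nuclei the shares were 13.0% in Fasn-R1812W (6.14 to 23.3) and 12.8% in WT (4.83 to 25.7). Without thinning, the Gabrd shares were 55.6% in Fasn-R1812W and 43.75% in WT granule-like nuclei, and 18.8% in Fasn-R1812W and 17.0% in WT CA1-like nuclei. Gabra2 was seen in 97.1% of Fasn-R1812W and 95.7% of WT CA1-like nuclei and in 36 of 45 Fasn-R1812W and 87 of 96 WT granule-like nuclei. Gabra5 was seen in 76.8% of Fasn-R1812W and 68.1% of WT CA1-like nuclei, against 6 of 40 Fasn-R1812W and 8 of 33 WT interneuron-like nuclei. For Gabra5 the interneuron order of the genotypes by share was opposite to that by CPM.

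**Figure D3:**
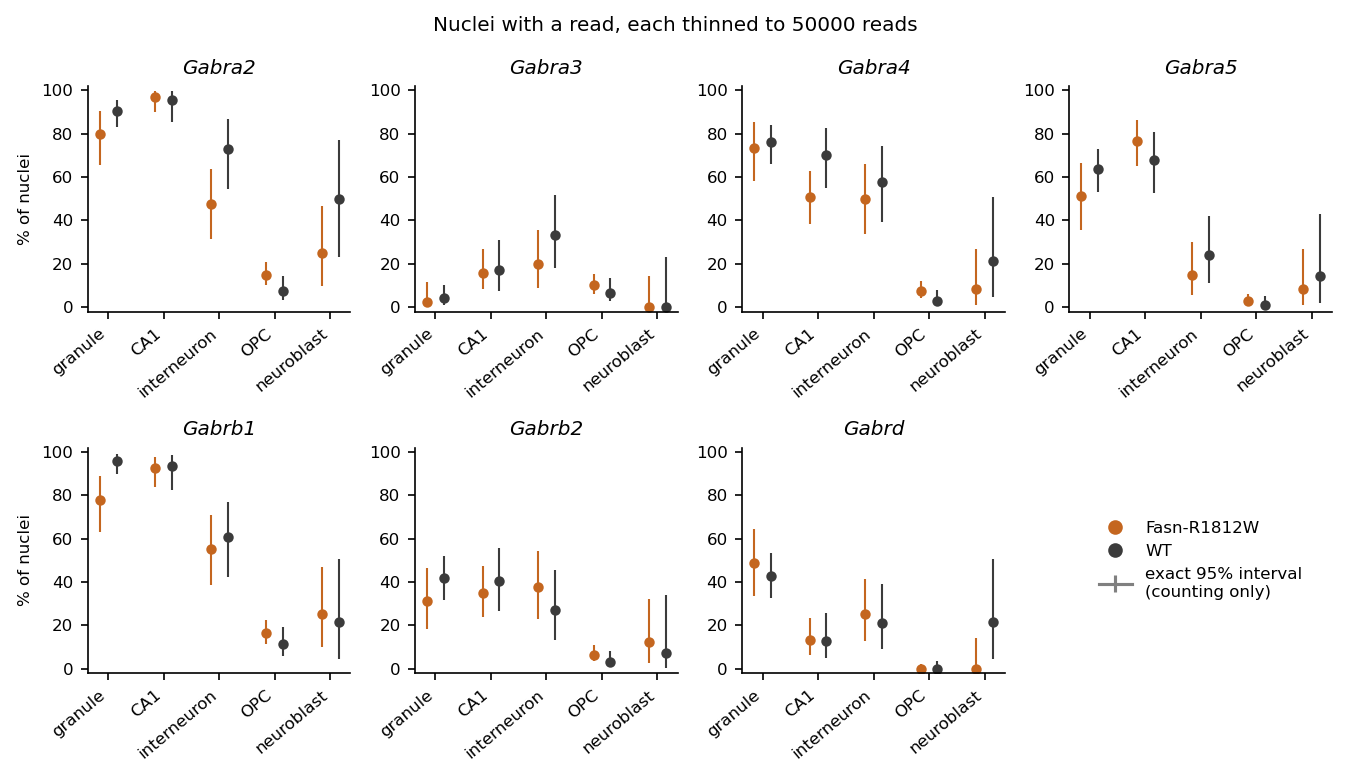
Each point is the percentage of nuclei with at least 1 read of a subunit after thinning to 50000 reads, with exact 95% intervals, by class and with Fasn-R1812W left of WT. Gabrd reaches 42.7% to 48.9% in granule-like nuclei and stays under 26% in the other classes shown, and every oligodendrocyte precursor-like share is under 17%.

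Gabra4 and Gabrd, the partners of the forebrain extrasynaptic receptor, were seen together in 17 of 45 Fasn-R1812W and 29 of 96 WT granule-like nuclei. In CA1-like nuclei both were seen in 7 of 69 Fasn-R1812W and 6 of 47 WT nuclei, and in interneuron-like nuclei in 7 of 40 Fasn-R1812W and 5 of 33 WT nuclei. Of the granule-like nuclei with a Gabrd read, 5 of 22 in Fasn-R1812W and 12 of 41 in WT had no Gabra4 read at this depth. Gabra4 was seen in 33 of all 45 Fasn-R1812W and 73 of all 96 WT granule-like nuclei. Whether the 2 genes were seen together more often than their single shares give was not tested. A granule-like or CA1-like nucleus carried a median of 4 of the 7 subunits in each library, an interneuron-like nucleus 2 in Fasn-R1812W and 3 in WT, and an oligodendrocyte precursor-like nucleus 0.

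To compare subunits with each other, CPM was divided by the length of annotated exon in kb, and each subunit was given as a percentage of the sum of the 7. In granule-like nuclei Gabra5 made up 20.8% of the sum in Fasn-R1812W and 26.6% in WT, and Gabra2 20.1% in Fasn-R1812W and 22.8% in WT. Gabra4 made up 18.1% in Fasn-R1812W and 16.4% in WT, and Gabrb1 15.8% in Fasn-R1812W and 17.7% in WT. Gabrd made up 21.1% in Fasn-R1812W and 10.7% in WT. Gabrb2 made up 4.08% in Fasn-R1812W and 5.70% in WT, and Gabra3 0.0193% in Fasn-R1812W and 0.0305% in WT. In CA1-like nuclei Gabra5 made up 34.1% in Fasn-R1812W and 30.5% in WT and Gabra2 26.0% in Fasn-R1812W and 33.1% in WT, so that these 2 alpha subunits took most of the sum. Gabrd held 3.13% in Fasn-R1812W and 2.11% in WT there.

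In interneuron-like nuclei the mix differed between the libraries. Gabrd made up 33.5% of the sum in Fasn-R1812W and 12.5% in WT, and Gabra2 5.73% in Fasn-R1812W and 26.6% in WT. Gabra4 had similar parts, with 22.0% in Fasn-R1812W and 18.0% in WT. In oligodendrocyte precursor-like nuclei Gabrb1 held 26.5% in Fasn-R1812W and 26.3% in WT, Gabra3 24.7% in Fasn-R1812W and 28.2% in WT, and Gabra2 20.2% in Fasn-R1812W and 28.1% in WT. The ranking within a class depended on how length and nuclei were weighed. Taking the mean over nuclei in place of the sum kept the leading subunit in 6 of 10 class-by-library mixes, and the longest transcript in place of all exons kept it in 7.

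**Figure D4:**
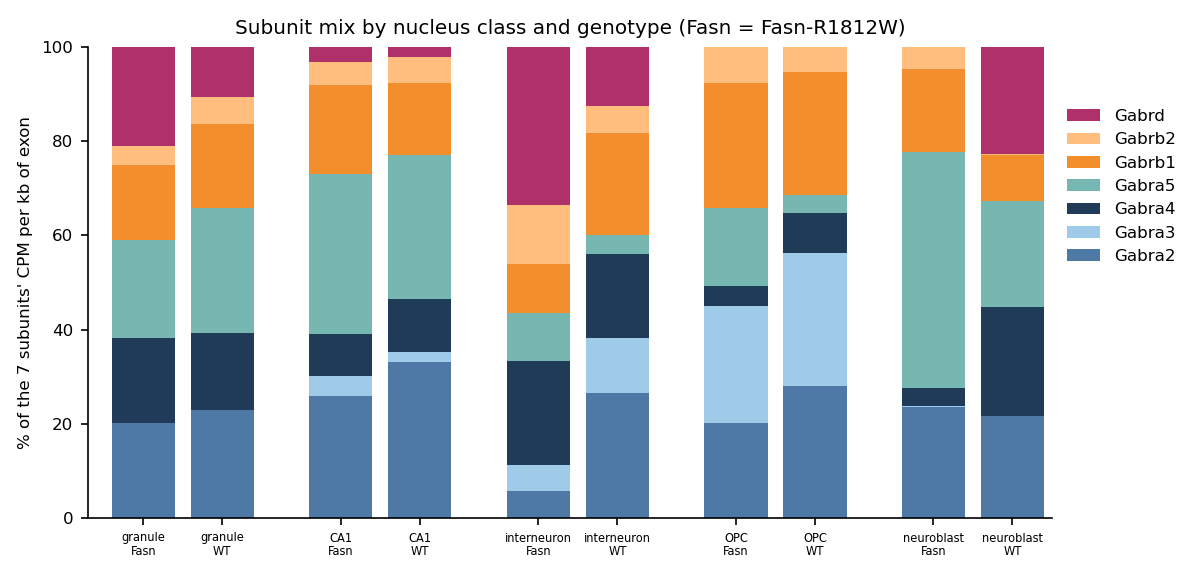
Stacked bars give each subunit's percentage of the summed CPM per kb of exon of the 7 subunits, by class, with Fasn-R1812W left of WT. Gabrd takes 21.1% of the Fasn-R1812W and 10.7% of the WT granule-like bar and no part of the oligodendrocyte precursor-like bars (OPC), where Gabra3 takes 24.7% in Fasn-R1812W and 28.2% in WT.

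Between genotypes no subunit was called by edgeR over both gates (0 of 7, adjusted p of 1 for each, 0 at an unadjusted p under 0.05). DESeq2 also called 0 of the 7. Of the 17411 genes 0.00574% were called higher, which was the single gene S100a8, a neutrophil gene named after its values were seen, and 0% lower. At an unadjusted p under 0.05 there were 276 genes. The log2 fold changes ran from -0.72 (SE 0.31) for Gabra2 to 0.42 (SE 0.65) for Gabrb2, with Gabrd outside that range at -4.42 (SE 3.90) because of its library without reads.

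In NeuN+ nuclei 0 of 7 subunits differed by 2-fold between genotypes, where 3.17% of 10895 genes were higher and 3.03% lower in Fasn-R1812W. Of the 7, 6 were lower and 1 was higher in Fasn-R1812W. Gabra2 was lowest relative to WT, with a log2 ratio of -0.59 (0.662-fold), followed by Gabrb1 at -0.43, Gabrb2 at -0.35, Gabra3 at -0.30, Gabra4 at -0.26 and Gabra5 at -0.20. Gabrd was higher, at 0.29. The median of the 7 was -0.30, and that of all genes 0.02. Each sign held in 9 of 9 alternatives. Classes took different shares of the libraries, with granule-like nuclei at 14.95% of Fasn-R1812W and 30.6% of WT nuclei. The part of this mix in the library ratios was not tested.

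In EdU+ nuclei 4 of the 7 passed the filter on low values and 0 differed by 2-fold, where 17.3% of 9193 genes were higher and 8.05% lower in Fasn-R1812W. Gabra4 came nearest, with a log2 ratio of -0.95, followed by Gabra2 at -0.88, Gabra3 at 0.49 and Gabrb1 at -0.26. Gabra4 and Gabrb1 changed sign in 2 of 9 alternatives each. Gabra5, Gabrb2 and Gabrd did not pass the filter, having a read in under 10% of nuclei of either genotype without thinning. A single nucleus gave 54.8% of the Gabra4 reads in EdU+ Fasn-R1812W and 50.9% in EdU+ WT.

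Within granule-like and CA1-like nuclei, no subunit that passed the filter (6 of 7 in granule-like and 7 of 7 in CA1-like nuclei) differed by 2-fold between genotypes. Of all genes that passed, 12.8% were higher and 16.8% lower in Fasn-R1812W granule-like nuclei, and 15% higher and 11.9% lower in Fasn-R1812W CA1-like nuclei. Gabra2 was lower in Fasn-R1812W in both classes, with log2 ratios of -0.52 in granule-like and -0.60 in CA1-like nuclei, and that sign held in 10 of 10 alternatives in each. Gabrd had 0.63 in granule-like nuclei, and between 0.36 and 0.75 in the alternatives. In granule-like nuclei Gabra5 had -0.69 and Gabrb2 -0.81. The Gabrb2 value ran from -2.12 to -0.19 over the alternatives and was at least 2-fold lower in 2 of 10, and a single nucleus gave 39.3% of its Fasn-R1812W reads (31.7 CPM without it). Gabra3 in CA1-like nuclei had 0.75, and Gabrb1 there had 0.05.

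Interneuron-like nuclei gave the largest genotype differences among the 3 NeuN+ classes compared. Of the 7 subunits, 4 differed by 2-fold, 3 higher and 1 lower in Fasn-R1812W, where 19.4% of 10968 genes were higher and 18.5% lower. Gabra2 was lower, with 61.2 CPM in Fasn-R1812W and 225 CPM in WT (log2 ratio -1.86), and was at least 2-fold lower in 10 of 10 alternatives. It was seen in 47.5% of thinned Fasn-R1812W nuclei (31.5 to 63.9) and 72.7% of WT nuclei (54.5 to 86.7). The same direction held in each of the 2 clusters, at 52.8 CPM in Fasn-R1812W and 297 CPM in WT for the Ndnf and Reln cluster and 69.6 CPM in Fasn-R1812W and 156 CPM in WT for the Sst and Pvalb cluster.

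Gabrd was higher in Fasn-R1812W interneuron-like nuclei, with 134 CPM against 39.6 CPM in WT (log2 ratio 1.74), and at least 2-fold higher in 10 of 10 alternatives. It was seen in 10 of 40 thinned Fasn-R1812W nuclei (12.7 to 41.2%) and 7 of 33 WT nuclei (8.98 to 38.9%), so the intervals of the shares overlapped. Gabrb2 had 112 CPM in Fasn-R1812W and 41.3 CPM in WT (log2 ratio 1.42), held at 2-fold in 8 of 10 alternatives. A single nucleus gave 37.4% of its Fasn-R1812W reads and 34.9% of its WT reads. By the mean over nuclei its log2 ratio was 0.45. Gabra5 had 42.4 CPM in Fasn-R1812W and 13.2 CPM in WT (log2 ratio 1.62), with 50.8% of the Fasn-R1812W reads in 1 nucleus, and it turned to -0.33 with coarser clustering. Interneuron markers summed to 13637 CPM in Fasn-R1812W and 12632 CPM in WT, granule markers to 395 CPM in Fasn-R1812W and 613 CPM in WT, CA1 markers to 319 CPM in Fasn-R1812W and 306.4 CPM in WT, and astrocyte markers to 521 CPM in Fasn-R1812W and 779 CPM in WT. Oligodendrocyte precursor markers summed to 157 CPM in Fasn-R1812W and 48.3 CPM in WT, and mature oligodendrocyte markers to 303 CPM in Fasn-R1812W and 170.0 CPM in WT. Their part in the differences was not tested.

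Among EdU+ classes, oligodendrocyte precursor-like nuclei had 0 of the 4 subunits that passed the filter at 2-fold (10 CPM and, without thinning, a read in 10% of nuclei, each in at least 1 of the genotypes), with 19.7% of 8738 genes higher and 12.9% lower in Fasn-R1812W. Gabrb1 had a log2 ratio of 0.88, Gabra3 0.66, Gabra2 0.39 and Gabra4 -0.10. Gabra4 passed by its CPM in WT and its share in Fasn-R1812W (12.2% of nuclei without thinning), and kept its sign in 4 of 10 alternatives. Neuroblast-like nuclei had 1 of 6 higher (Gabrb2, 2.09) and 4 lower (Gabra2 at -1.83, Gabra4 at -4.51, Gabrb1 at -1.12, and Gabrd). Gabrb1 kept its sign in 6 of 10 alternatives, with values up to 7.27, and Gabrb2 in 9 of 10, with -2.54 when nuclei were assigned by marker score. In that class 39.0% of 8614 genes were higher and 32.7% lower, so 2-fold ratios were common between these 24 Fasn-R1812W and 14 WT nuclei. Gabra4 had 17.7 CPM in Fasn-R1812W and 424 CPM in WT, and 72.0% of the WT reads came from 1 nucleus. Gabrd had no read in Fasn-R1812W and 196 CPM in WT. It was seen in 0 of 24 thinned Fasn-R1812W nuclei (0 to 14.2%) and 3 of 14 WT nuclei (4.66 to 50.8%). The intervals of these shares overlapped, and no fold is given as a measure of size. Gabrd was lower in Fasn-R1812W in 8 of 10 alternatives and had a log2 ratio of 0 in the other 2. Gabrb2 had 22.9 CPM in Fasn-R1812W, 96.6% of it from 1 nucleus, and 7 reads in WT.

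**Figure D5:**
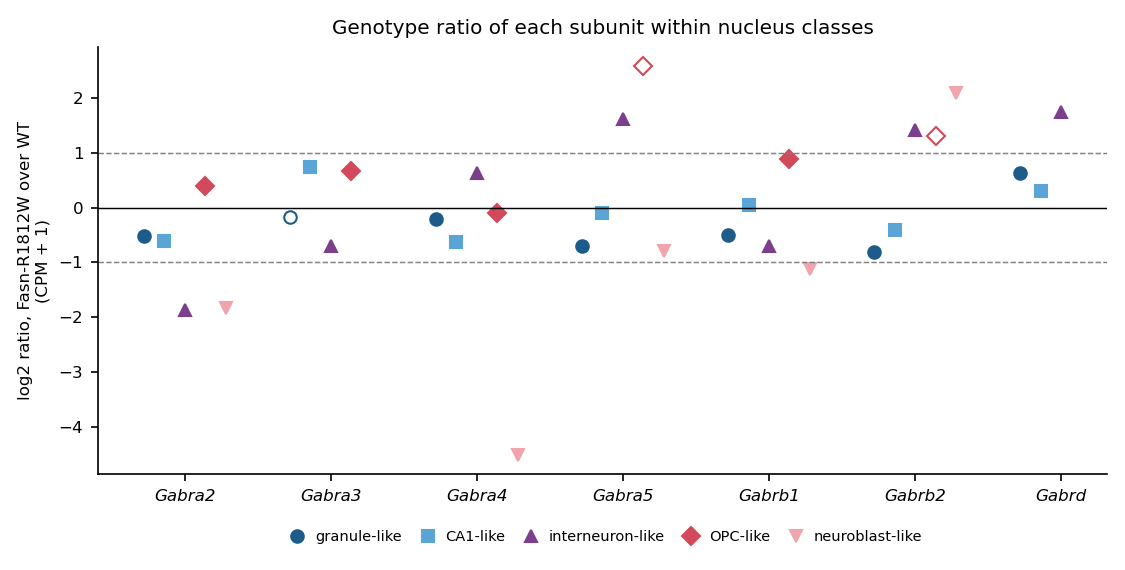
Each symbol is the log2 ratio of Fasn-R1812W over WT for a subunit in a class, from CPM + 1, with dashed lines at 2-fold and open symbols for values that did not pass the filter on low values. Ratios with a sum of 0 reads are not drawn. Granule-like and CA1-like symbols stay within the lines, and interneuron-like symbols pass them for Gabra2 (-1.86), Gabra5 (1.62), Gabrb2 (1.42) and Gabrd (1.74).

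The other genes of GABA signalling were taken from fixed lists. Among other GABA-A subunits, Gabrg3 had 39.8 CPM in EdU+ Fasn-R1812W and 101 CPM in EdU+ WT, against 107 CPM in NeuN+ Fasn-R1812W and 78.6 CPM in NeuN+ WT (adjusted p = 0.643 by edgeR). In granule-like over CA1-like nuclei it was 2-fold lower in both libraries, with 10.4 CPM in Fasn-R1812W and 10.1 CPM in WT granule-like nuclei, against 137 CPM in Fasn-R1812W and 122 CPM in WT CA1-like nuclei.

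Of the chloride transporters, Slc12a5, the exporter of mature neurons, fell in EdU+ nuclei (log2 fold change -4.15, SE 0.36, adjusted p = 0.00272 by edgeR). It had 21.1 CPM in EdU+ Fasn-R1812W and 30.3 CPM in EdU+ WT, against 454 CPM in NeuN+ Fasn-R1812W and 427 CPM in NeuN+ WT. The importer Slc12a2 did not pass the test (adjusted p = 0.0559), with 170.5 CPM in EdU+ Fasn-R1812W and 163 CPM in EdU+ WT, against 49.2 CPM in NeuN+ Fasn-R1812W and 59.9 CPM in NeuN+ WT. In neuroblast-like nuclei Slc12a5 had 182 CPM in Fasn-R1812W and 141 CPM in WT, and Slc12a2 had 88.1 CPM in Fasn-R1812W and 304 CPM in WT.

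Among 14 anchoring and trafficking genes 1 fell and 0 rose in EdU+ nuclei, namely Hap1, which aids receptor recycling (log2 fold change -1.91, SE 0.40, adjusted p = 0.0386 by edgeR), where 2.88% of all genes were called lower and 3.85% higher. Dmd, which encodes dystrophin, had 310.2 CPM in EdU+ Fasn-R1812W and 348 CPM in EdU+ WT, against 321 CPM in NeuN+ Fasn-R1812W and 317 CPM in NeuN+ WT. In granule-like over CA1-like nuclei 3 of the 14 were 2-fold higher in both libraries (Rdx, Hap1 and Plcl1) and 1 was lower (Dmd), against 7.48% higher and 7.51% lower of all genes. Of 7 genes for GABA synthesis, packaging, uptake and breakdown 1 fell and 0 rose in EdU+ nuclei, which was Gad2 (-2.55, SE 0.45, adjusted p = 0.0219 by edgeR). Gad1, which makes GABA, had 153 CPM in Fasn-R1812W and 236 CPM in WT granule-like nuclei, against 2.37 CPM in Fasn-R1812W and 12.05 CPM in WT CA1-like nuclei. Of 2 GABA-B receptor genes Gabbr2 fell (-2.04, SE 0.34, adjusted p = 0.0183 by edgeR). None of the chloride transport, anchoring, GABA metabolism and GABA-B lists held a gene called between genotypes over both gates, and in NeuN+ nuclei 1 gene of these lists differed by 2-fold, Plcl1, which was lower in Fasn-R1812W.

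For each subunit the genes with the most similar pattern were ranked by Pearson's r of log2(CPM + 1) over 19 class-by-library sums, among 14100 genes. The sums come from 4 libraries that differ in depth, and r is a description. Gabra2 was most like B3galt1 (r = 0.98), Gabra3 like Shc3 (0.95), Gabra4 like Ildr2 (0.94) and Gabra5 like Kcna4 (0.94), and Kcna4 was also among the 3 genes most like Gabra2. Gabrb1 was most like Ly6h and Lrrc7 (0.98 each) and Gabrb2 like Hivep2 (0.96). Gabrd had the lowest best value, 0.85 for Vmac.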

How the data were processed

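The deposited count tables of 4 libraries hold whole-number reads per gene and well, and the submitters' processing notes name Trimmomatic 0.36, STAR 2.5.3a and GRCm38.p5. How reads were counted, by which annotation and with which strand setting, is not given in the sources used here. The 4 libraries use the same 384 index pairs, and the study states 382 nuclei per library. Nuclei with at least 1000 genes and 50000 reads were kept. Each gate was clustered with scanpy 1.11.5 (2000 variable genes, 20 principal components, 15 neighbours, Leiden resolution 1), without GABA-A genes. A cluster took the name of the list with the highest mean log2 fold over all other nuclei, where that mean was at least 0.5, at least 3 of its markers were 2-fold higher and the top 10 genes held no more markers of another list than of its own. Clusters far shallower than their libraries and with none of their own markers among those 10 genes stayed unnamed. That naming rule was set after the data were seen. No doublet caller was run, and dropping the 5% of nuclei richest in genes is an alternative. Ratios use a prior of 1 CPM and need 10 CPM on either side and, without thinning, a read in 10% of nuclei on either side. Intervals cover counting error only, as reads without molecular identifiers are not independent molecules. Gates and genotypes were tested on 4 summed libraries with edgeR 4.0.16 (R 4.3.3, TMM, gate and genotype as terms, Benjamini-Hochberg over all genes), with DESeq2 1.42.0 as an alternative. With 4 libraries and these terms the edgeR fit left 1 residual degree of freedom, and it borrowed 5.77 prior degrees of freedom across genes. No group had a replicate library, so p-values do not measure the spread between replicates. The spread used is how far the libraries depart from gate and genotype effects that add, which may be technical. Genes named are the 7 members, up to 4 of the most abundant genes of each list, the 3 genes most similar to a member, and, chosen after their values were seen, listed genes that passed a test or the 2-fold line. Mitochondrially encoded genes were left out of totals. The members and lists were chosen with earlier results of these data known. Exon lengths come from GENCODE M21. Embryonic nuclei are not analysed here. Some listed subunits are not reported here.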

Additional observations from a re-analysis of the deposited data

Results flagged for a closer look

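Gabrd went opposite ways between genotypes in a pair of classes. In interneuron-like nuclei it was higher in Fasn-R1812W, with a log2 ratio of 1.74 over WT. In neuroblast-like nuclei it had no read in Fasn-R1812W, while 3 of 14 WT nuclei held all reads. With a level of 3 reads set for Fasn-R1812W, it was at least 340.3-fold lower than in WT. This fold is no measure of size, because reads without molecular identifiers are not independent molecules. The lower level in Fasn-R1812W neuroblast-like nuclei held in 8 of 10 alternatives. The other 2 (nuclei assigned by marker score, and without the gene-richest 5% of nuclei) had a log2 ratio of 0. Each value compares 1 library with 1 other, and the difference between the classes was not tested.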

How the results depend on the processing

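Of 80 alternative counts of subunits, 70 stayed within 1.5 times the value reported. The gate comparison called 4 subunits in the fit reported and between 3 and 6 when each library was left out in turn (fits with gate as the only term, in which the lone library of a gate is assumed to vary like the others), but 0 with the stricter nucleus filter, which leaves few EdU+ WT nuclei. Over all genes the gate calls numbered 1171, against 1966 with the relaxed filter, 1908 with no filter, 2235 in thinned nuclei, 112 with the stricter filter, 3756 with DESeq2, and 4394 and 3767 without the EdU+ Fasn-R1812W or the EdU+ WT library. Genotype calls over both gates numbered 1, against 3 without a gene filter, with the stricter filter and in thinned nuclei, 0 with no nucleus filter and 89 with DESeq2. In EdU+ nuclei the count of subunits 2-fold apart between genotypes was 0, but 1 with the relaxed filter, with no filter, without the top nucleus and without the gene-richest 5% of nuclei, and 2 with the stricter filter. Within classes 9 became 5 at resolution 0.5. Granule-like over interneuron-like counted 2, and 4 without the top nucleus of each gene. The leading subunit of the mix was kept in 2 of 10 mixes without division by length and in 6 with the mean per nucleus. Reversals occurred for Gabra5 in interneuron-like nuclei (-0.33 at resolution 0.5 and -0.37 without the gene-richest 5% of nuclei), for Gabrb1 in neuroblast-like nuclei (0.097 at resolution 0.5, 0.062 with 10 principal components, 0.53 by marker score and 7.27 without the gene-richest 5% of nuclei) and for Gabrb2 there (-2.54 by marker score). The cause was not tested. No paired analysis was possible because each group is 1 library and the labels carry no replicate numbers. Depth limits EdU+ WT most, where 3 reads over the library come to 0.1996 CPM, against 0.0316 CPM in EdU+ Fasn-R1812W.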
